A study of Mus musculus with 5 samples.

Results

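The genes described here are 10 that glucocorticoids are known to induce, followed in the spleens of Sirt6 mutant mice: Klf9, Klf15, Cebpd, Zbtb16, Tsc22d3, Dusp1, Errfi1, Sgk1, Fkbp5 and Fam107a. Their probes were found by gene symbol in the probe annotation of the array. The set of 10 was chosen by gene name, with log2 ratios to the pool on these arrays, above all the Sirt6-/- arrays, in view from earlier results. Their values against the pool in the Sirt6-/- group and the difference between the groups are therefore descriptions, with no test. The Sirt6-/- Rela+/- group was tested against the pool, but that choice limits its p-values as well. The annotation named a probe for 9 of the 10, among 14654 gene symbols in all, and each of these 9 had a value on all 5 arrays. They therefore belong to the 9000 genes that were tested. Zbtb16, which encodes a zinc finger repressor, was not analysed here, since no probe of the annotation used carries its name.

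Each array compared mutant spleen RNA, labelled with Cy5, with RNA of a pool of wild-type spleens, labelled with Cy3, with 15 ug of amplified RNA for each dye. The groups were Sirt6-/- Rela+/- spleens, which lack Sirt6 and carry 1 functional copy of Rela (3 arrays), and Sirt6-/- spleens (2 arrays), so that all mutant spleens lacked Sirt6. Sirt6 encodes a chromatin-bound deacetylase and Rela encodes p65, a subunit of NF-kB, a transcription factor of inflammation. The sources used here do not give the age, sex or strain of the mice, the way in which the alleles were made or the number of spleens in the pool. Values are log2 ratios to the pool, read as above 0 where the mutant spleen was brighter. The sources used here state neither the log base nor the direction. The dyes were not swapped, and wild-type RNA was present only as the pool, so a dye bias and the pool's own deviation stay in each ratio to it. Both drop out when the groups are subtracted.

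The targeted genes were read first. Sirt6 had a value on only 1 of the 5 arrays, -4.31 on array 2 labelled Sirt6-/- Rela+/-, which leaves the knockout unchecked on the others. Rela lay at 1.15, -0.084 and -0.20 on arrays 1, 2 and 3 labelled Sirt6-/- Rela+/-, against 0.48 and 1.07 on the Sirt6-/- arrays. The library labelled Sirt6-/- Rela+/- 1 thus had Rela above both Sirt6-/- arrays, against its label, and results are also given without it. The sources used here do not say whether the Rela probe lies in the altered part. Across all genes the Sirt6-/- Rela+/- arrays correlated with each other at r between -0.01 and 0.34, against 0.82 for the Sirt6-/- pair. Arrays 1 and 2 labelled Sirt6-/- Rela+/- correlated with the Sirt6-/- arrays at 0.39 and 0.59 (array 1) and 0.46 and 0.38 (array 2), higher than with any array of their own group, and array 3 at -0.16 and -0.02. These are correlations across genes, which are not independent replicates, and all arrays share the pool. A ratio shows no absolute level, so the tissue was checked only by which markers gave a value. Of the B cell and T cell markers looked for, 7 of 9 and 6 of 8 had a value on all arrays. So had 9000 of the 14654 gene symbols, and 4 of 7 markers of exocrine pancreas. A value on all arrays therefore does not identify the tissue.

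Glucocorticoids act through the glucocorticoid receptor, the product of Nr3c1, which waits in the cytoplasm in a complex with Hsp90 and its cochaperones. With hormone bound it moves to the nucleus, where it binds DNA as a dimer at an inverted repeat called the glucocorticoid response element and switches genes on. It also restrains NF-kB and AP-1. In lymphoid organs these hormones kill immature lymphocytes and raise the number of circulating neutrophils, and several of the induced genes, among them Fkbp5, Tsc22d3 and Dusp1, act as brakes on the receptor itself or on inflammatory signalling.

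Promoter letters are shown for the members in which a hormone-linked motif was found, because all members are classed by this response. The RefSeq promoter table (build GRCm38.p6) held 18 windows for 8 of the 10 genes, 1 for each annotated transcript start. The 250 bases before each start were searched on both strands for the full element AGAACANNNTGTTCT, for the relaxed element GNACANNNTGTNC, for the 6-letter arm AGAACA that makes up each side of the element, and for the cyclic AMP response element TGACGTCA. A full element also holds a relaxed element and both of its arms. In the lines that follow, capitals mark the full element in Sgk1, the relaxed element in Fam107a, the 6-letter arm in Tsc22d3 (on the opposite strand, where it is read as its complement) and the cyclic AMP response element in Dusp1 and Errfi1.
Sgk1, chr10:21993640-21993889, plus strand: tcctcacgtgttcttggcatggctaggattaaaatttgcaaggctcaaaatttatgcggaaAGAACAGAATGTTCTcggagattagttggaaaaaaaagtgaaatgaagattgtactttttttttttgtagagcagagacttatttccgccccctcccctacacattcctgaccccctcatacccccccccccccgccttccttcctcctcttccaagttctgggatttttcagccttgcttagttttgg
Fam107a, chr14:8309780-8310029, minus strand: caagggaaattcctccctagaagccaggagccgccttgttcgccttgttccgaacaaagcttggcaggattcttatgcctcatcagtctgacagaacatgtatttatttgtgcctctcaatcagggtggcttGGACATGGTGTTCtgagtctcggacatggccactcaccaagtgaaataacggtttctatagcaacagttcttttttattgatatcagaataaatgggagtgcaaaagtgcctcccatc
Tsc22d3, chrX:140600523-140600772, minus strand: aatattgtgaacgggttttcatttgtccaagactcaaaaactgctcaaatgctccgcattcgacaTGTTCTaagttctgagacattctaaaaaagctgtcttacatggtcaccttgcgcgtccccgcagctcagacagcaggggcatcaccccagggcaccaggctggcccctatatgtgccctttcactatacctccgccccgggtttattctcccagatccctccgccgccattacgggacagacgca
Dusp1, chr17:26508473-26508722, minus strand: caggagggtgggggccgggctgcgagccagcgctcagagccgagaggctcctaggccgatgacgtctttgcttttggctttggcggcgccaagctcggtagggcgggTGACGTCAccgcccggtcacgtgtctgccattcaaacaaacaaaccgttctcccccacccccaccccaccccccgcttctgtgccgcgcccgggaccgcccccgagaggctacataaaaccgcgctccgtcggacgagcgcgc
Errfi1, chr4:150854820-150855069, plus strand: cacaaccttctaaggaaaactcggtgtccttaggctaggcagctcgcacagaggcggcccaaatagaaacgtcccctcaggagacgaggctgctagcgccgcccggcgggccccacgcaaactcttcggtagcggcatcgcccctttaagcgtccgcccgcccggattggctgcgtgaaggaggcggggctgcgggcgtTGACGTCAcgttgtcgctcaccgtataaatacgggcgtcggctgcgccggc

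The full element was found in 1 of the 18 windows, that of the fifth of 6 annotated Sgk1 starts, 189 to 175 bases before the start. Of all 32851 windows of the table, 3 held it (0.00913%). The relaxed element was found in 3 windows of 2 members, Sgk1 and Fam107a, against 0.387% of all windows. The 2 Fam107a windows overlap almost wholly, so that they show the same letters. The 6-letter arm stood in 6 windows of 3 members (16.1% of all windows), and the cyclic AMP response element in 1 window each of Dusp1 and Errfi1 (1.55% of all windows). None of these motifs was found in the windows of Klf9, Klf15 and Fkbp5. A match is a description of the letters and not a binding site, and the absence of a match covers only these 250 bases.

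**Figure D1:**
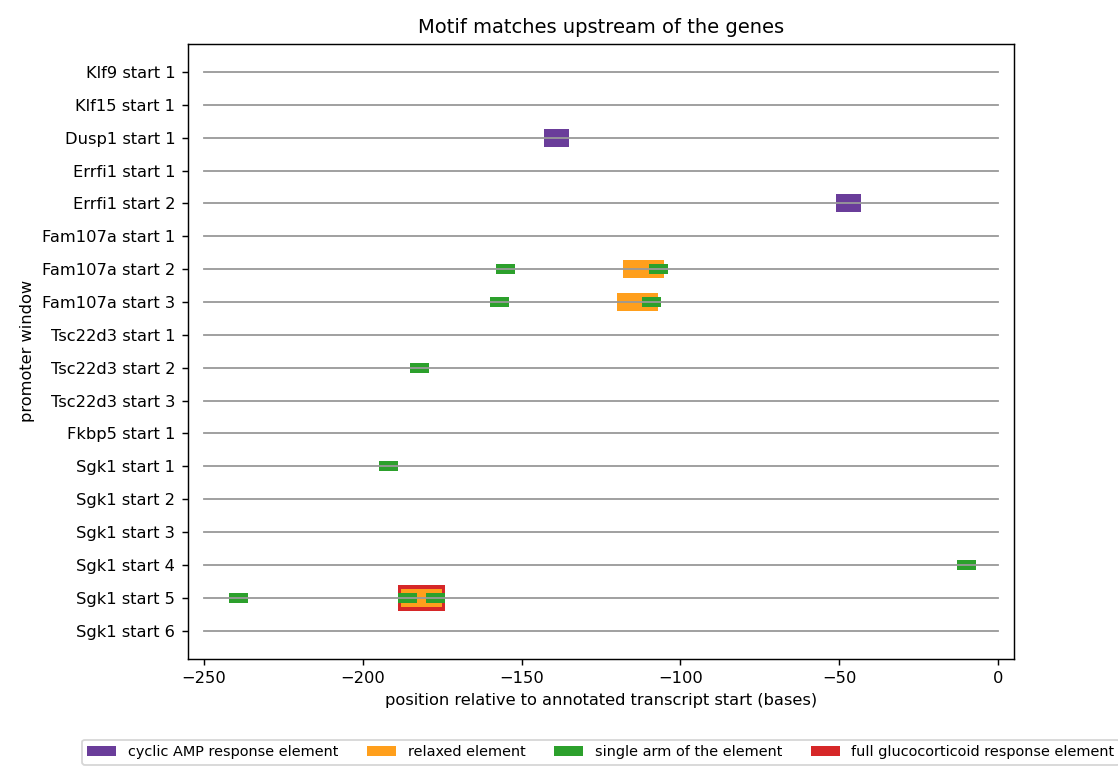
Motif matches in the 250 bases before each annotated transcript start of 8 glucocorticoid-induced genes, by position relative to the start. Grey lines are the windows, 18 in all, and coloured blocks are matches on either strand. The full element stands in 1 Sgk1 window only, and the windows of Klf9, Klf15 and Fkbp5 hold no match.

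On the arrays, most of these genes lay far above the pool in Sirt6-/- spleens and at or below it in Sirt6-/- Rela+/- spleens. The median of the 9 genes was -1.53, 0.23 and -0.97 on arrays 1, 2 and 3 labelled Sirt6-/- Rela+/-, against 2.07 and 2.50 on the Sirt6-/- arrays. Over all 9000 genes the medians of the 5 arrays lay between -0.065 and 0.053. For 8 of the 9 genes both Sirt6-/- arrays stood above all 3 Sirt6-/- Rela+/- arrays, which was the case for 13.8% of all genes tested. The exception was Tsc22d3. Because the genes were chosen with these values known, nothing is read from that count. Above the pool on both Sirt6-/- arrays were 8 of the 9 (39.6% of all genes), and below it on both were 0 (41.9% of all genes). Below the pool on all Sirt6-/- Rela+/- arrays were 3 (15.1% of all genes), above it on all of them 0 (16.5% of all genes), and above it on all 5 arrays 0 (11.4% of all genes). The count of genes without overlap was also 8 of 9 without the library labelled Sirt6-/- Rela+/- 1. Such a count can only stay or rise when an array is left out, and the share of all genes is not given for that setting. In a whole spleen, fewer cells of a type and less RNA per cell cannot be told apart.

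**Figure D2:**
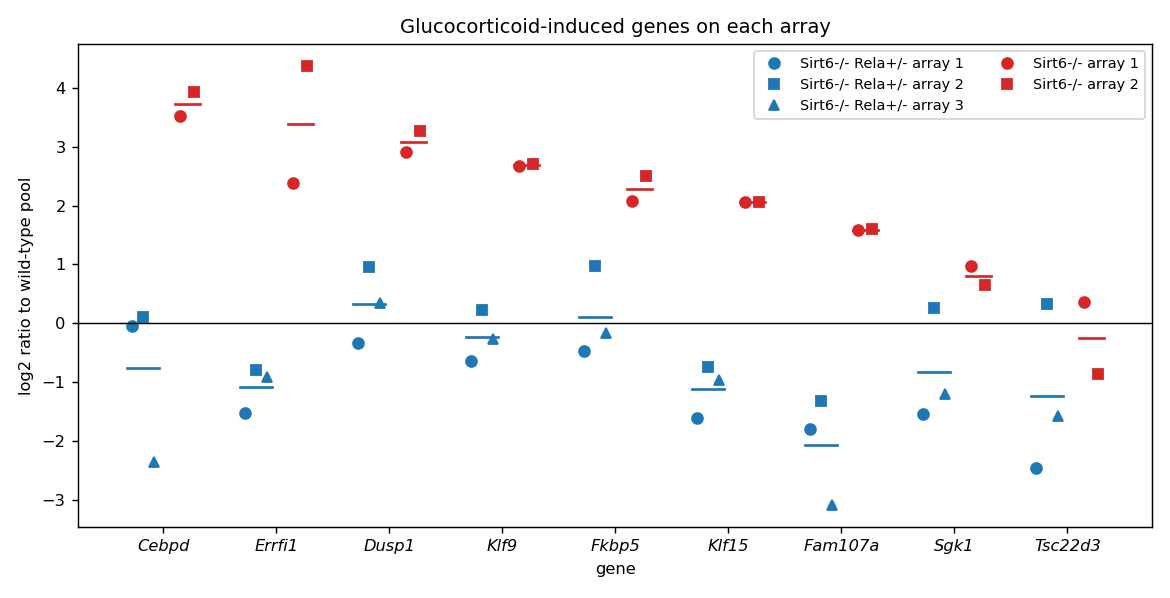
Log2 ratio to the wild-type pool of 9 glucocorticoid-induced genes on each of 5 arrays, with Sirt6-/- Rela+/- arrays (blue, 3) left of Sirt6-/- arrays (red, 2). Short lines are group means. For 8 genes all blue points lie below both red points, and for Tsc22d3 they overlap.

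Of the 9 measured genes, 4 encode regulators of transcription. Klf9, a Krüppel-like factor induced by glucocorticoids in many cell types, lay at -0.64, 0.23 and -0.27 on the Sirt6-/- Rela+/- arrays, against 2.68 and 2.71 on the Sirt6-/- arrays. The Sirt6-/- arrays were almost equal and 2.45 above the highest Sirt6-/- Rela+/- array. Klf15, a factor that drives amino acid breakdown and glucose production in liver and muscle, lay at -1.62, -0.75 and -0.97 on the Sirt6-/- Rela+/- arrays and at 2.06 and 2.07 on the Sirt6-/- arrays. All arrays of the first group were below the pool and all of the second above it. The mean difference of Sirt6-/- Rela+/- minus Sirt6-/- spleens was -2.93 ± 0.45 for Klf9 and -3.18 ± 0.45 for Klf15 (limma SE, n = 3 and 2).

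Cebpd, a basic leucine zipper factor of the acute phase and of adipocyte differentiation, had the largest difference of the 9 genes, at -4.49 ± 0.80 (SE, n = 3 and 2). It lay at -0.050, 0.10 and -2.35 on the Sirt6-/- Rela+/- arrays, against 3.52 and 3.94 on the Sirt6-/- arrays. Array 3 labelled Sirt6-/- Rela+/- was far below the other 2 of its group, which were level with the pool. The difference of Errfi1 (-4.46 ± 0.67) was within 1 SE of that of Cebpd, so the order of these 2 genes is not settled. Without array 3 the difference was -3.70 for Cebpd and -4.54 for Errfi1.

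Tsc22d3, which encodes the glucocorticoid-induced leucine zipper, a protein that binds and restrains NF-kB and AP-1, did not share the pattern. It lay at -2.46, 0.32 and -1.58 on the Sirt6-/- Rela+/- arrays, against 0.36 and -0.86 on the Sirt6-/- arrays. The groups overlapped, and array 2 labelled Sirt6-/- Rela+/- stood with the Sirt6-/- arrays. The difference was -0.99 ± 0.87 (SE, n = 3 and 2). Of its 2 probes only 1 had values.

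The next 3 genes encode proteins of signalling. Dusp1, a phosphatase that switches off p38 and JNK MAP kinases, lay at -0.33, 0.96 and 0.34 on the Sirt6-/- Rela+/- arrays, against 2.91 and 3.27 on the Sirt6-/- arrays. The first group straddled the pool, and its highest array was 1.95 below the lowest Sirt6-/- array. Errfi1, a feedback inhibitor of the epidermal growth factor receptor, lay at -1.53, -0.79 and -0.92 on the Sirt6-/- Rela+/- arrays and at 2.39 and 4.37 on the Sirt6-/- arrays. It was the gene on which the Sirt6-/- arrays differed most, by 1.99, although both stood far above the other group. The differences between the groups were -2.76 ± 0.52 for Dusp1 and -4.46 ± 0.67 for Errfi1 (SE, n = 3 and 2).

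Sgk1, a kinase that regulates ion channels and transporters and the gene with the full element shown above, had a smaller separation. Averaged over its 2 probes with values, it lay at -1.55, 0.25 and -1.20 on the Sirt6-/- Rela+/- arrays, against 0.97 and 0.65 on the Sirt6-/- arrays. The gap between the highest Sirt6-/- Rela+/- array and the lowest Sirt6-/- array was 0.40. The probes disagreed. Probe 32125 lay at 0.18, 0.39 and -0.45 on the Sirt6-/- Rela+/- arrays and at 1.47 and 1.77 on the Sirt6-/- arrays, without overlap. Probe 30743 lay at -3.27, 0.12 and -1.96 on the Sirt6-/- Rela+/- arrays and at 0.46 and -0.47 on the Sirt6-/- arrays, with overlap.

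Fkbp5, a cochaperone that lowers the receptor's affinity for hormone, lay at -0.47, 0.96 and -0.17 on the Sirt6-/- Rela+/- arrays, against 2.07 and 2.50 on the Sirt6-/- arrays. It is the member closest to the receptor, and its groups were 1.11 apart at their nearest arrays. Fam107a, an actin-binding protein induced by stress in brain, lay at -1.80, -1.32 and -3.09 on the Sirt6-/- Rela+/- arrays, against 1.58 and 1.60 on the Sirt6-/- arrays. Of the 9 genes it lay lowest in the Sirt6-/- Rela+/- group, with all 3 arrays below -1 and array 3 the lowest. The difference was -2.17 ± 0.56 for Fkbp5 and -3.66 ± 0.60 for Fam107a (SE, n = 3 and 2).

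In order of their mean ratio to the pool in Sirt6-/- spleens the genes ran Cebpd (3.73), Errfi1 (3.38), Dusp1 (3.09), Klf9 (2.70), Fkbp5 (2.28), Klf15 (2.07), Fam107a (1.59), Sgk1 (0.81) and Tsc22d3 (-0.25). These are differences from the pool, not levels. From Cebpd down to Klf15 each gap between neighbours was smaller than the larger SE of the pair, so the order among these 6 is not settled. The gaps from Klf15 to Fam107a (0.48), Fam107a to Sgk1 (0.78) and Sgk1 to Tsc22d3 (1.06) were larger than that SE. Of the genes, 7 were above 1 on both Sirt6-/- arrays, with Fam107a the lowest of them and Sgk1 the nearest below. For all genes tested that share was 7.37%.

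The Sirt6-/- Rela+/- arrays differed from each other. On array 1 none of the 9 genes was above the pool and 5 were below -1. On array 2, 6 were above the pool and 1, Fam107a, was below -1. On array 3, 1 was above the pool, Dusp1, and 4 were below -1. The spread between arrays was smallest for Errfi1 (SD 0.40, n = 3), Klf9 (0.44) and Klf15 (0.45) and largest for Tsc22d3 (1.42) and Cebpd (1.37).

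The test of the Sirt6-/- Rela+/- group against the pool was made with limma over all 9000 genes, with Benjamini-Hochberg adjustment at 0.05, and called 0 of the 9 genes. It called 0.322% of all genes, 0.178% lower and 0.144% higher. At an unadjusted p under 0.05, 3 of the 9 were lower, against 8.00% of all genes, and 0 were higher, against 5.06% of all genes. The 3 were Fam107a (-2.07 ± 0.38, SE, n = 3, limma adjusted p = 0.123), Klf15 (-1.11 ± 0.29, adjusted p = 0.262) and Errfi1 (-1.08 ± 0.42, adjusted p = 0.374), each below the pool on 3 of 3 arrays. Klf9 (-0.23 ± 0.29), Dusp1 (0.32 ± 0.33) and Fkbp5 (0.11 ± 0.35) had means within 1 SE of the pool. That does not show that they equal it. The pool counts as 1 control sample, and its own spread is left out of this test. The genes were chosen with ratios of this group in view too, so the p-values are not independent of that choice.

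**Figure D3:**
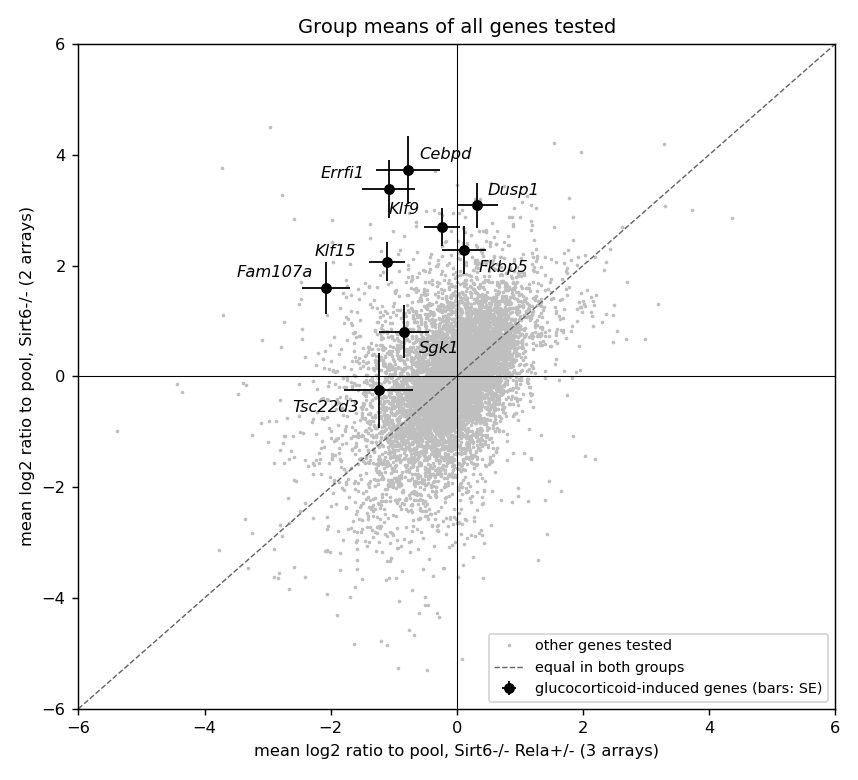
Mean log2 ratio to the pool in Sirt6-/- Rela+/- spleens (horizontal axis, 3 arrays) against Sirt6-/- spleens (vertical axis, 2 arrays). Grey points are the genes tested and black points are 9 glucocorticoid-induced genes with limma standard errors; the dashed line marks equal means. All 9 lie above the line, Tsc22d3 nearest to it.

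Other genes of the pathway came from 6 lists with 111 symbols, of which 77 were tested. The lists were chosen with earlier results of these data known, so their counts and calls are descriptions. Of these, limma called 1 higher and 0 lower in the Sirt6-/- Rela+/- group against the pool, 0 in the Sirt6-/- group (0% of all genes), and 0 in the difference between the groups (0% of all genes, smallest adjusted p in these lists 0.204). At an unadjusted p under 0.05, 481 of all genes were lower and 313 higher in that difference.

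The receptor gene Nr3c1 lay at -0.53, -0.09 and -1.27 on the Sirt6-/- Rela+/- arrays, against -0.20 and -0.93 on the Sirt6-/- arrays. The groups overlapped, with a difference of -0.07 ± 0.53 (SE, n = 3 and 2). The chaperones of the receptor complex stood the other way round from the induced genes. The list of receptor and chaperones had array medians of 1.04, 0.11 and 0.93 in the Sirt6-/- Rela+/- group, against -0.40 and -0.56 in the Sirt6-/- group. In 7 of its 10 tested genes both Sirt6-/- arrays lay below all Sirt6-/- Rela+/- arrays, which was so for 14.4% of all genes. These 7 were Hspa8, Hsp90aa1, Dnajb1, Stip1, Ppid, St13 and Bag1. Since this list was chosen with earlier results known, the count is a description.

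Hspa8, the constitutive Hsp70, lay at 3.04, 1.98 and 2.43 on the Sirt6-/- Rela+/- arrays, against 0.62 and 0.62 on the Sirt6-/- arrays. It was the gene called against the pool (2.48 ± 0.30, SE, n = 3, limma adjusted p = 0.0485), higher on 3 of 3 arrays. The call was lost in 12 of 14 alternative settings, among them the library labelled Sirt6-/- Rela+/- 1 left out (adjusted p = 0.150). The limma adjusted p ran from 0.000266 to 0.150. Leaving out either Sirt6-/- array repeats the fit of the Sirt6-/- Rela+/- arrays alone, so these settings are not separate checks. Hsp90aa1, an Hsp90 gene chosen for mention after its values were seen, lay at 1.55, 0.08 and 1.80 on the Sirt6-/- Rela+/- arrays and at -1.31 and -0.60 on the Sirt6-/- arrays. Its difference was 2.10 ± 0.63 (SE, n = 3 and 2). The Hsp90aa1 probes with a value were not the same on all arrays, so its values partly compare unlike probes. The cochaperones Ptges3 (difference 0.93 ± 0.81) and Fkbp4 (0.60 ± 0.51) overlapped between the groups.

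Enzymes that set the supply of active hormone had 4 tested genes of 7. Hsd11b1, which regenerates active corticosterone inside cells, lay at -1.23, 1.15 and -0.16 on the Sirt6-/- Rela+/- arrays, against 0.83 and -0.13 on the Sirt6-/- arrays, with overlap. H6pd, which supplies its cofactor, lay at 0.80, 0.69 and 0.10 on the Sirt6-/- Rela+/- arrays, against 2.13 and 2.67 on the Sirt6-/- arrays. Hsd11b2, which inactivates the hormone, lay at -2.82, -0.45 and -1.35 on the Sirt6-/- Rela+/- arrays and at 0.02 and 0.27 on the Sirt6-/- arrays. Neither H6pd nor Hsd11b2 overlapped between the groups. In these 2 of the 4 tested genes both Sirt6-/- arrays stood above the others, as in 13.8% of all genes. The drug and steroid exporter gene Abcb1a overlapped (difference -0.42 ± 0.80, SE, n = 3 and 2). Of 8 coregulators tested, 0 separated the groups. Over all genes 13.8% did so with the Sirt6-/- arrays above and 14.4% with them below. Nrip1 (-0.58 ± 0.51), Med14 (-0.03 ± 0.71), Ncoa1 (-0.55 ± 0.56) and Ncoa2 (-0.51 ± 0.53) lay farthest from the pool as the mean of both groups. The values in parentheses are differences between the groups (SE, n = 3 and 2).

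Among 34 tested genes that glucocorticoids induce in 1 tissue or another, the array medians were -0.04, 0.46 and -0.28 in the Sirt6-/- Rela+/- group, against 1.05 and 1.30 in the Sirt6-/- group. Both Sirt6-/- arrays stood above all Sirt6-/- Rela+/- arrays in 14 of them (41.2%, against 13.8% of all genes) and below in 1, Mknk2 (14.4% of all genes). This list, too, was chosen with earlier results known, so its counts are descriptions. Over the 3 scalings tried instead, 12 to 15 stood above and 1 or 2 below. At an unadjusted p under 0.05, limma found 11 lower and 0 higher in the difference between the groups, against 5.34% and 3.48% of all genes, and 0 at an adjusted p under 0.05. Against the pool in Sirt6-/- spleens it found 19 higher and 1 lower at an unadjusted p under 0.05, against 9.82% and 10.6% of all genes, and 0 after adjustment. Per1, the clock gene with the best known acute response to the hormone, lay at -0.92, -0.73 and 0.36 on the Sirt6-/- Rela+/- arrays, against 0.98 and 1.28 on the Sirt6-/- arrays. Txnip, an inhibitor of thioredoxin, lay at 1.08, 0.60 and -0.08 on the Sirt6-/- Rela+/- arrays, against 2.48 and 2.36 on the Sirt6-/- arrays. Il1r2, the decoy receptor for interleukin 1, lay above the pool on all 5 arrays, at 1.43, 2.06 and 0.28 in the Sirt6-/- Rela+/- group and 2.60 and 3.48 in the Sirt6-/- group.

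Some induced genes, chosen for mention after their values were seen, had a separation as wide as that of Cebpd or Klf15. Pdk4, a kinase that turns off glucose oxidation, lay at -3.56, -0.74 and -1.65 on the Sirt6-/- Rela+/- arrays, against 2.35 and 2.50 on the Sirt6-/- arrays. Cdkn1c, a cyclin-dependent kinase inhibitor, lay at -1.61, -1.29 and -2.35 on the Sirt6-/- Rela+/- arrays and at 1.74 and 1.75 on the Sirt6-/- arrays. For both, all Sirt6-/- Rela+/- arrays were below the pool and both Sirt6-/- arrays above it. Pck1, the gluconeogenic enzyme gene, did not follow them: it lay at 0.65, -4.80 and 1.34 on the Sirt6-/- Rela+/- arrays and at -1.89 and -2.05 on the Sirt6-/- arrays. Thbs1 overlapped between the groups (difference -2.38 ± 1.67, SE, n = 3 and 2).

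**Figure D4:**
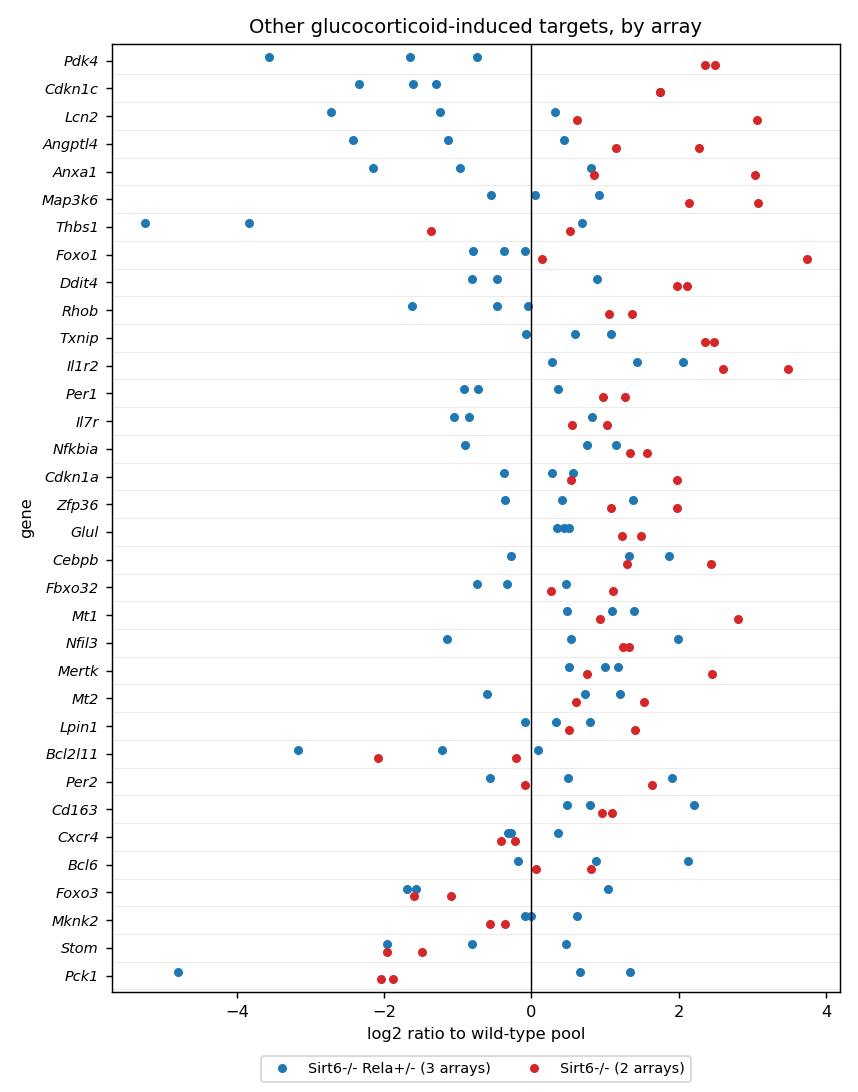
Log2 ratio to the pool of 34 other glucocorticoid-induced genes on each array, Sirt6-/- Rela+/- (blue, 3 arrays) above Sirt6-/- (red, 2 arrays) in each row, sorted by the difference between group means. The red points lie right of all blue points in 14 genes and left of them in 1, Mknk2.

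Of 20 genes that glucocorticoids repress, many of them cytokines, 7 had a value on all arrays and were tested. Their array medians overlapped between the groups, at 0.63, 1.03 and -0.70 in the Sirt6-/- Rela+/- group against -0.16 and 0.34 in the Sirt6-/- group. Ifng, the interferon gamma gene, lay below the pool on all 5 arrays, at -2.91, -1.05 and -2.32 on the Sirt6-/- Rela+/- arrays and -3.15 and -3.15 on the Sirt6-/- arrays. Il1b, the interleukin 1 beta gene, lay above it on all 5, at 1.79, 1.84 and 0.04 on the Sirt6-/- Rela+/- arrays, against 1.96 and 1.84 on the Sirt6-/- arrays. Thus a gene of each direction stood in this list. The gelatinase gene Mmp9 did not overlap between the groups (difference -0.99 ± 0.53), and the chemokine gene Ccl4 did (1.59 ± 1.26, SE, n = 3 and 2). In 2 of the 7 genes both Sirt6-/- arrays stood above all others (13.8% of all genes), and in 2 below (14.4% of all genes).

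Immediate early genes, which respond within minutes to many stimuli and to the handling of tissue, had 14 tested of 16. Their array medians were 1.45, 0.80 and -0.14 in the Sirt6-/- Rela+/- group, against 1.07 and 1.96 in the Sirt6-/- group, so the groups overlapped. Fos, a subunit of AP-1, lay at 3.74, 2.42 and -1.54 on the Sirt6-/- Rela+/- arrays, against 3.94 and 4.47 on the Sirt6-/- arrays. It was far above the pool on 4 of the 5 arrays and below it on array 3 labelled Sirt6-/- Rela+/-. Cebpd and Fam107a were also at their lowest on that array. Klf9, Klf15, Dusp1, Errfi1, Tsc22d3, Fkbp5 and Sgk1 were lowest on array 1 instead, on which Fos lay at 3.74. Both Sirt6-/- arrays stood above all Sirt6-/- Rela+/- arrays in 3 of the 14 genes, against 13.8% of all genes. These were Fos, Ier3 (difference -1.82 ± 0.54) and Egr1 (-3.46 ± 1.20, SE, n = 3 and 2). Socs3 overlapped between the groups (-0.54 ± 0.62). Dusp1 and Cebpd are themselves immediate early genes in many cell types. The part of handling in the values of the induced genes was not tested.

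**Figure D5:**
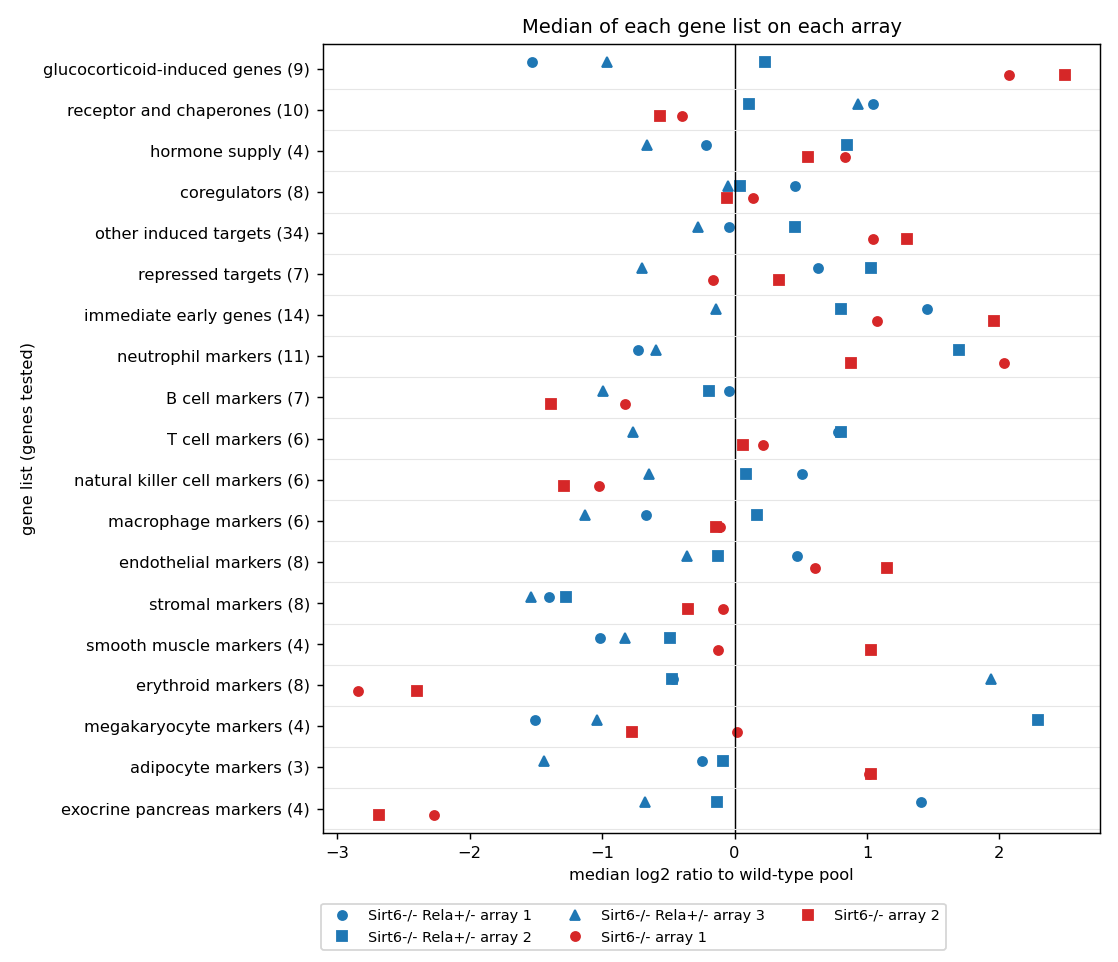
Median log2 ratio to the pool of each gene list on each array, Sirt6-/- Rela+/- arrays (blue, 3) above Sirt6-/- arrays (red, 2) in each row, with the number of genes tested in parentheses. For the glucocorticoid-induced genes and for the other induced targets both red points lie right of all blue points, for the receptor and chaperones left of them.

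The 5 genes outside the set whose values over the 5 arrays lay closest to the mean of the 9 genes were Eepd1, Nsun2, Asprv1, Dll1 and Akap12. Their Euclidean distances to it were 0.77, 0.80, 0.83, 0.85 and 0.92 on the log2 scale, against a median of 3.79 over all other genes. The 9 genes themselves lay between 0.91 (Klf15) and 3.81 (Tsc22d3) from their mean. Eepd1, the nearest, lay at -0.98, -0.31 and -1.11 on the Sirt6-/- Rela+/- arrays and at 1.77 and 1.64 on the Sirt6-/- arrays. Dll1, a Notch ligand, lay at -0.60, -0.31 and -0.97 on the Sirt6-/- Rela+/- arrays and at 1.63 and 1.95 on the Sirt6-/- arrays. Both crossed the pool between the groups as Klf15 did.

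Markers of some cell types in or near the spleen also had array medians that did not overlap between the groups, though limma called none of the 75 markers tested in the difference. The marker lists were also chosen with earlier results known, so their counts and calls are descriptions. Stromal markers had array medians of -1.40, -1.27 and -1.53 in the Sirt6-/- Rela+/- group, against -0.09 and -0.35 in the Sirt6-/- group, and in 7 of 8 both Sirt6-/- arrays lay above the other arrays (87.5%, against 13.8% of all genes). Of these, Mgp (-2.70 ± 0.34) and Eln (-2.28 ± 0.29) fell in Sirt6-/- Rela+/- spleens against the pool (SE, n = 3, limma adjusted p = 0.0485 for each). These calls were lost in 12 of 14 alternative settings for Mgp and 13 of 14 for Eln, with adjusted p up to 0.150 and 0.175, and both without the library labelled Sirt6-/- Rela+/- 1 (adjusted p = 0.150 and 0.160). As for Hspa8, not all of these settings are separate checks. Endothelial markers had medians of 0.47, -0.12 and -0.36 in the Sirt6-/- Rela+/- group, against 0.61 and 1.15 in the Sirt6-/- group, with 5 of 8 above in this sense.

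Neutrophil markers had medians of -0.73, 1.69 and -0.59 on the Sirt6-/- Rela+/- arrays, against 2.03 and 0.88 on the Sirt6-/- arrays, with 4 of 11 above (13.8% of all genes); the medians overlapped. Array 2 labelled Sirt6-/- Rela+/- was the highest of its group both for these markers and for the median of the 9 genes. It was also the highest of its group for the T cell, macrophage, megakaryocyte, stromal, smooth muscle and adipocyte medians. For the B cell, natural killer cell, endothelial, erythroid and exocrine pancreas medians it was not. The 3 adipocyte markers tested of 8 had medians of -0.24, -0.09 and -1.44 on the Sirt6-/- Rela+/- arrays against 1.01 and 1.03 on the Sirt6-/- arrays, and 4 smooth muscle markers -1.02, -0.49 and -0.83 on the Sirt6-/- Rela+/- arrays against -0.13 and 1.03 on the Sirt6-/- arrays. Thus stromal, endothelial, adipocyte and smooth muscle medians were all higher on both Sirt6-/- arrays, as those of the induced genes were. Gene by gene, only 1 of the 3 adipocyte and 2 of the 4 smooth muscle markers were above in this sense (13.8% of all genes). Adipoq and Fabp4 overlapped between the groups. Adipoq was far below the pool in both, with means of -3.31 in Sirt6-/- Rela+/- and -3.47 in Sirt6-/- spleens.

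Erythroid markers stood the other way, with medians of -0.47, -0.47 and 1.93 in the Sirt6-/- Rela+/- group, against -2.84 and -2.40 in the Sirt6-/- group, and 6 of 8 lower on both Sirt6-/- arrays than on all others, against 14.4% of all genes. Exocrine pancreas markers, of a neighbouring organ, had medians of 1.41, -0.13 and -0.68 on the Sirt6-/- Rela+/- arrays and -2.27 and -2.69 on the Sirt6-/- arrays, with 3 of 4 lower. Natural killer cell markers (0.51, 0.09 and -0.64 on the Sirt6-/- Rela+/- arrays, against -1.03 and -1.29 on the Sirt6-/- arrays) had 4 of 6 lower, and B cell markers (-0.04, -0.20 and -0.99 on the Sirt6-/- Rela+/- arrays, against -0.83 and -1.39 on the Sirt6-/- arrays) 3 of 7. T cell markers had medians of 0.78, 0.80 and -0.76 on the Sirt6-/- Rela+/- arrays and 0.22 and 0.06 on the Sirt6-/- arrays. Macrophage markers had -0.67, 0.17 and -1.13 on the Sirt6-/- Rela+/- arrays and -0.11 and -0.14 on the Sirt6-/- arrays. Megakaryocyte markers had -1.50, 2.29 and -1.04 on the Sirt6-/- Rela+/- arrays and 0.02 and -0.77 on the Sirt6-/- arrays. For these 3 lists, and for the B cell markers, the medians overlapped between the groups. The part of these cell types in the values of the induced genes was not tested.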

How the data were processed

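Spleen RNA was measured on 5 2-colour arrays. The authors deposited processed values only, taken here to be log2 ratios, Cy5 to Cy3, from the dyes in the labels, their symmetry around 0 and the custom of the source database. The sources used here state neither log base, direction and normalization nor the rule behind blank cells. The column medians were 0.004, -0.039 and -0.014 for Sirt6-/- Rela+/- and 0.004 and -0.006 for Sirt6-/-. Spots with a value numbered 19768 to 22871 of 38784 per array, and the number of arrays limits the precision.

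Arrays were median-centred, spots were averaged per probe and probes per gene, and symbols were updated through the RefSeq table of GRCm38.p6. The 9000 genes measured on every array were fitted with limma 3.58.1 (lmFit, eBayes) in R 4.3.3 with group means, 3 residual and 3.63 prior degrees of freedom, 2-sided tests and Benjamini-Hochberg adjustment. An SE is limma's moderated standard error, drawn from all arrays. The script was tested on simulated data. Promoters and figures used Python 3.11.15 and matplotlib 3.10.9.

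The members and lists were chosen with earlier results of these data known. All members were named, and Nr3c1, Hsd11b1 and Per1; from each other pathway list up to 4 genes with the largest absolute mean of the group means; and the 5 nearest genes. Other genes are said to have been chosen after their values were seen, except where a count of separated genes is spelled out or a marker passed the test. The design text calls the samples biological replicates without naming animals, so the spread behind each p-value is that between these samples and may be technical. Alternatives changed centring, scaling, genes tested, probe averaging, the variance prior, the replicate block, the arrays fitted and each array in turn. The record of the Hspa8, Mgp and Eln calls under each of these was added after the data were seen.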

Additional observations from a re-analysis of the deposited data

Results flagged for a closer look

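For Klf15, Errfi1 and Fam107a every Sirt6-/- Rela+/- array lay below the pool and every Sirt6-/- array above it, so the groups moved to opposite sides of the wild-type pool. The difference of Sirt6-/- Rela+/- minus Sirt6-/- spleens was -3.18 for Klf15, -4.46 for Errfi1 and -3.66 for Fam107a on the log2 scale. This difference was not tested, because the genes were chosen with these values known. In the Sirt6-/- Rela+/- group the 3 genes were also those below the pool at an unadjusted p under 0.05, and none passed the adjusted threshold in limma.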

How the results depend on the processing

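Of 460 values recomputed under 14 alternative settings, 446 kept their direction and their side of the threshold or moved by less than the spread between arrays. Some settings repeat the same fit for a group, so not all are separate checks. When the 25% of genes that varied least were dropped, limma called 1 of the 9 genes against the pool in Sirt6-/- Rela+/- spleens, Fam107a (adjusted p = 0.00501, against 0.114 to 0.279 when arrays were left out in turn). That filter raised the calls over all genes to 301, against 29 without it. Other settings gave 0 to 36 such calls. In Sirt6-/- spleens the calls over all genes were 0, but 641 with that filter and 3321 with only the arrays of the group; in the difference they were 0, but 135 with the filter and 42 with the replicate block. The means that turned sign were those of Fkbp5, at -0.32 without Sirt6-/- Rela+/- array 2 (range over arrays left out -0.32 to 0.40), and Cebpd, at 0.025 without array 3 (range -1.20 to 0.025), both in Sirt6-/- Rela+/- spleens, and Tsc22d3 in Sirt6-/- spleens, at 0.36 without Sirt6-/- array 2, against -0.25 with both. Leaving out each array in turn gave 0 to 1 genes above the pool on every array, the 1 being Dusp1 without Sirt6-/- Rela+/- array 1. The median of the 9 genes then ran between -1.22 and -0.63 in Sirt6-/- Rela+/- spleens, 2.07 and 2.50 in Sirt6-/- spleens and -3.16 and -2.72 for the difference. In these fits 8 to 9 genes did not overlap, a count that can only stay or rise with an array left out. With the replicate number as a random block the group medians were -0.83 and 2.36, and 0 of the 9 genes were called. The difference came from another fit, with the number as a fixed block, and its median was -2.90. That fit gave the same member differences as leaving out Sirt6-/- Rela+/- array 3, so for them it is not a separate check. Deviations from the group means correlated at -0.41 and -0.40 across genes for same-numbered arrays, over only 2 shared numbers. The deviations of the 2 Sirt6-/- arrays mirror each other, so differently numbered arrays necessarily gave the opposite values, 0.41 and 0.40. These values cannot decide whether same-numbered arrays share more than a number. The median of neutrophil markers in Sirt6-/- Rela+/- spleens was -0.17, but 0.06 and 0.25 after quantile and spread scaling. Probes without a value, among them 1 each of Errfi1, Tsc22d3 and Sgk1, limit what can be said of these genes.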
